A study of Mus musculus with 12 samples.

Results

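Transcripts of 10 components of insulin signalling, listed by name with no threshold on their values but with earlier results of these data known, were followed across the 4 groups of the study, out of 55401 genes counted. They were the ligand *Igf1*, the receptors *Insr* and *Igf1r*, the receptor inhibitor *Grb14*, the receptor substrates *Irs1* and *Irs2*, the phosphoinositide 3-kinase (PI3K) subunit *Pik3r1*, the kinases *Akt1* and *Akt2*, and the transcription factor *Foxo1*. All 10 passed the filter on low counts that left 16540 genes. The study asked how subcutaneous white adipose tissue (scWAT) responds to chronic cold when the histone demethylase JMJD1A, encoded by *Kdm3a* (*Jmjd1a*), cannot demethylate. RNA was sequenced from scWAT of 12 female mice, 3 in each group, whose age at the start of treatment was 16 weeks. The groups were *Jmjd1a* +/+ (wild-type) and *Jmjd1a* HY/HY (HY/HY) mice, each genotype at 30°C and at 8°C. Every mouse was first kept at 30°C, which is thermoneutral for a mouse, for 1 week, and then stayed at 30°C or went to 8°C for 1 more week. The HY allele carries a histidine-to-tyrosine change that removes the demethylase activity and leaves the protein in place. It was made by CRISPR-Cas9 in fertilised C57BL/6J eggs and is present in every cell of the body, so effects that arise in adipocytes and effects that reach the fat from other organs cannot be told apart.

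Insulin and IGF-1 bind 2 related receptor tyrosine kinases, which phosphorylate the IRS proteins. Phosphorylated IRS proteins recruit PI3K through its regulatory subunit p85, the lipid product of PI3K activates AKT, and AKT drives glucose uptake, lipid storage and protein synthesis while it keeps FOXO1 out of the nucleus. In adipocytes this cascade restrains lipolysis, and most of its regulation is by phosphorylation, which RNA levels do not show.

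Levels are given as CPM, counts scaled to library size with TMM factors, in the order of replicates 1, 2 and 3, and differences as log2 fold changes of the edgeR quasi-likelihood fit. A gene was called when its Benjamini-Hochberg adjusted p over all 16540 genes was under 0.05 and its fold change was above 1.5 or below 0.67. For the interaction, defined as the log2 cold response in HY/HY mice less the one in wild-type mice, the adjusted p alone decided. CPM is not divided by transcript length, so levels are compared between groups and not between genes. The edgeR p-values set a difference against the spread between mice of the same group, with an estimate of the spread that all 4 groups shared. Unless a replicate block is named, the fit had no term for the replicate numbers. This holds also for the cold response of HY/HY mice, where the numbers were taken to pair samples.

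The libraries held from 13592629 to 26352081 read pairs on genes, and each member had between 161 and 10093 pairs in a library. The *Kdm3a* level averaged 49.3 ± 11.2 CPM in wild-type (SD, n = 3 here and after) and 45.5 ± 7.67 CPM in HY/HY mice at 30°C, and at 39.9 ± 3.77 and 44.7 ± 1.40 CPM at 8°C. Its level therefore does not check the genotype labels, because the mutation does not remove the transcript and the counts do not separate the alleles. The adipocyte markers *Adipoq* and *Plin1* and the other 5 of their list summed to between 21800 and 48000 CPM in all libraries. The third HY/HY library at 30°C stood apart. It was the only one of the 12 whose nearest library by log2 CPM lay outside its own group, in HY/HY mice at 8°C (r = 0.978, against a mean of 0.967 with its own group). Its share of mitochondrial DNA transcripts was 16.8%, against 9.32% and 9.76% in the other libraries of its group. White adipocyte markers summed to 48000 CPM in it, against 29700 and 21800 CPM in those, and mammary epithelial markers to 527 CPM, against 1400 and 1460 CPM. Its thermogenic adipocyte markers summed to 241 CPM, against 65.4 and 108 CPM in the rest of its group and 533 to 1680 CPM in HY/HY libraries at 8°C, on the side of the other libraries at 30°C. The second wild-type library at 30°C held 1290 CPM of skeletal muscle markers, against 3.56 to 23.1 CPM in all other wild-type libraries. Calls that turn on the first of these are given with and without it.

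*Igf1* encodes insulin-like growth factor 1, which adipose tissue makes under the control of growth hormone. It read 133.6, 133.8 and 148 CPM in wild-type mice at 30°C, and 81.5, 95.3 and 103 CPM in wild-type mice at 8°C. In HY/HY mice it read 144, 122 and 264 CPM at 30°C and 218, 185 and 218 CPM at 8°C. At 8°C every HY/HY library was above every wild-type library, while at 30°C the genotypes overlapped. The difference between genotypes at 8°C was 2.22-fold (log2 1.15, SE 0.235, 95% interval 0.64 to 1.66, edgeR adjusted p = 0.0141), and *Igf1* was called higher. The cold response in wild-type mice was a log2 fold change of -0.57 (edgeR adjusted p = 0.0947), which was not called although the groups did not overlap. It was called lower with library totals alone (log2 -0.90, edgeR adjusted p = 0.0034), a scaling that moved the median of all genes there to -0.41. With both libraries that stand apart left out it was called too (-0.59, edgeR adjusted p = 0.0155). At 30°C the genotypes differed by a log2 fold change of 0.35 (edgeR adjusted p = 0.448), and by -0.050 (0.923) without the third HY/HY library.

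*Pik3r1* encodes p85α, the main regulatory subunit of PI3K. Wild-type mice had 202, 195 and 225 CPM at 30°C and 134, 123 and 109 CPM at 8°C. The HY/HY libraries held 167, 173 and 308 CPM at 30°C and 264, 218 and 348 CPM at 8°C. The 3 lowest values of all 12 libraries were those of wild-type mice at 8°C. *Pik3r1* fell with cold in wild-type mice to 0.588 of its level (log2 -0.77, SE 0.233, 95% interval -1.28 to -0.26, edgeR adjusted p = 0.0333). At 8°C it was 2.27-fold higher in HY/HY than in wild-type mice (log2 1.18, SE 0.235, 95% interval 0.67 to 1.70, edgeR adjusted p = 0.0123). Both comparisons use the same 3 wild-type libraries at 8°C. The cold response of the 2 genotypes differed by a log2 value of 1.12 (95% interval 0.40 to 1.84, edgeR adjusted p = 0.112), which did not pass.

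These calls rest on few libraries. Leaving out any 1 of the 6 wild-type libraries ended the call of *Pik3r1* in wild-type cold, with adjusted p from 0.066 to 0.12 and log2 fold changes from -0.83 to -0.69. The genotype difference of *Pik3r1* at 8°C was lost without the second or the third wild-type library at 8°C (edgeR adjusted p = 0.0511 and 0.0624) or without the third HY/HY library at 8°C (0.0601). That of *Igf1* was lost without the first or second wild-type library at 8°C (0.0628 and 0.0564) or without the first or the third HY/HY library at 8°C (0.0573 and 0.0597). The log2 fold change at 8°C stayed between 0.99 and 1.33 for *Pik3r1* and between 1.06 and 1.29 for *Igf1* over all alternatives run.

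**Figure D1:**
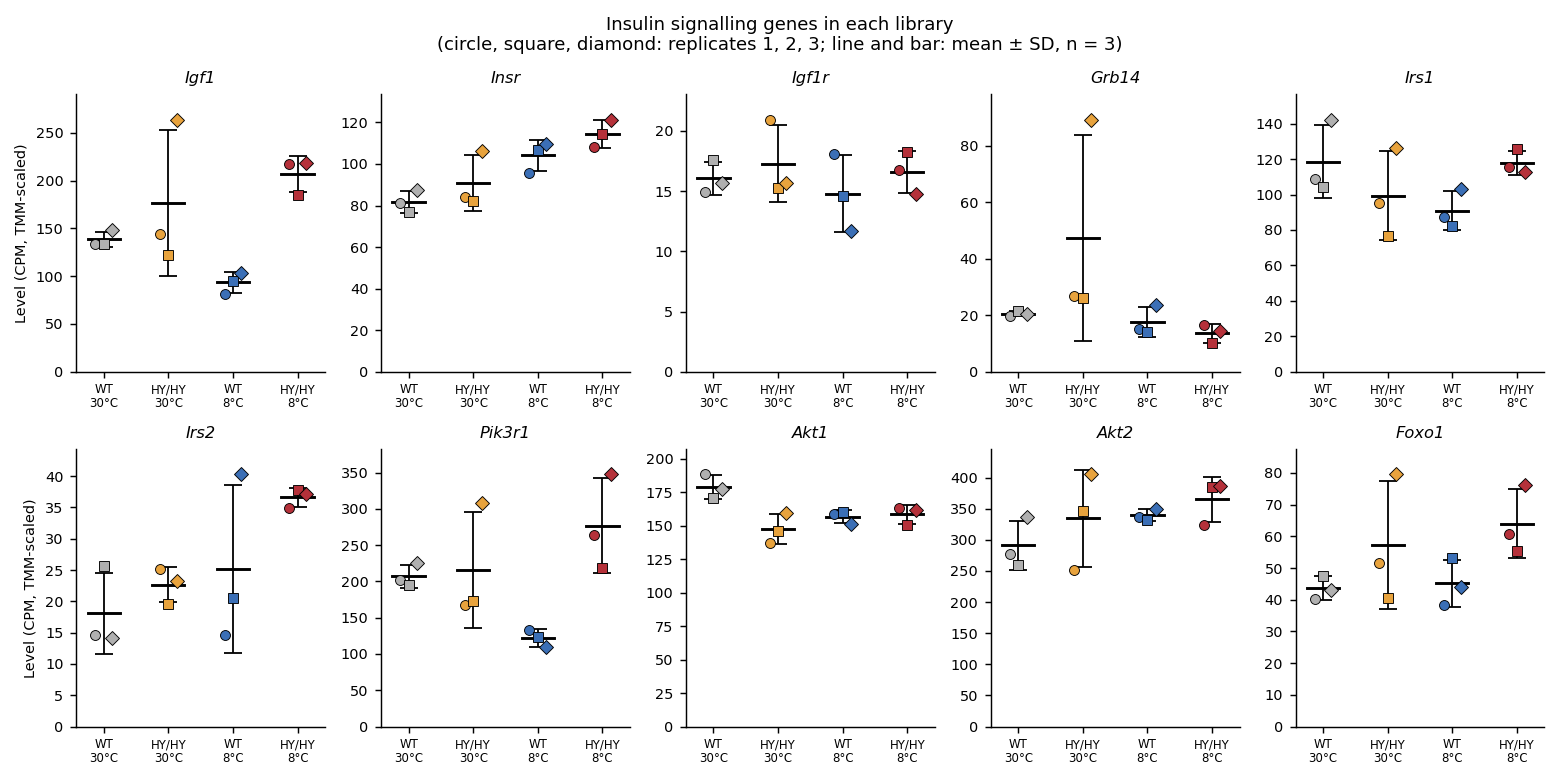
Level of each gene in CPM (y axis, from 0) in the 3 libraries of each group (x axis); symbols are replicates 1 to 3, and line and bar are mean ± SD. *Igf1* and *Pik3r1* are lowest in wild-type mice at 8°C, at 93.4 and 122 CPM on average. The third HY/HY library at 30°C is the highest of its group for every gene but *Igf1r* and *Irs2*.

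Without the third HY/HY library at 30°C, which leaves 2 libraries in that group, further calls appeared. *Igf1* then was higher at 8°C than at 30°C in HY/HY mice, by a log2 fold change of 0.64 (edgeR adjusted p = 0.0299), and so was *Pik3r1*, by 0.70 (0.0488). The interaction was 1.20 for *Igf1* (edgeR adjusted p = 0.0161) and 1.46 for *Pik3r1* (0.0187). In that setting 2.72% of all genes were called higher in HY/HY cold and 0.236% higher in the interaction. With all 12 libraries the cold responses of HY/HY mice were 0.23 for *Igf1* (edgeR adjusted p = 0.688) and 0.36 for *Pik3r1* (0.51), and the *Igf1* interaction was 0.80 (0.276). The fitted direction was the same with and without this library, while the sizes and the calls changed. The *Pik3r1* interaction also passed with all 12 libraries under DESeq2 (log2 1.10, adjusted p = 0.0362) and with library totals alone (1.35, edgeR adjusted p = 0.0239).

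**Figure D2:**
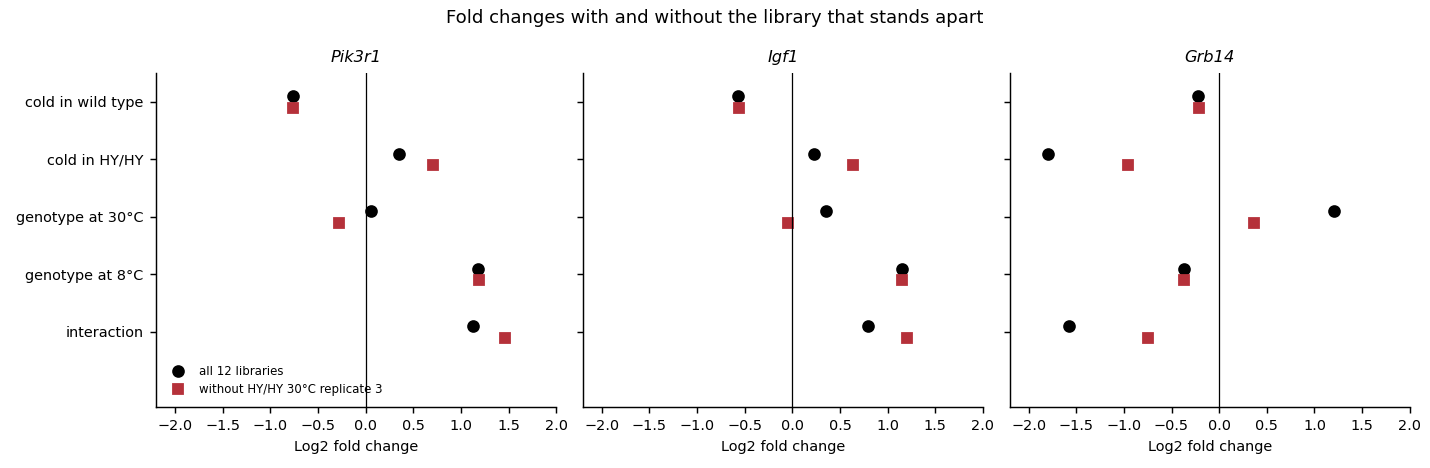
Log2 fold changes (x axis) of *Pik3r1*, *Igf1* and *Grb14* in the 5 comparisons (y axis), with all 12 libraries (black circles) and without the third HY/HY library at 30°C (red squares). The *Grb14* difference at 30°C moves from 1.20 to 0.37, while the values in wild-type cold and between genotypes at 8°C hardly move.

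*Grb14* encodes an adaptor that binds the activated insulin receptor and inhibits its kinase. It read 19.7, 21.4 and 20.3 CPM in wild-type mice at 30°C and 15.1, 14.1 and 23.6 CPM in wild-type mice at 8°C. In HY/HY mice it read 26.7, 26.1 and 89.4 CPM at 30°C and 16.4, 10.1 and 14.4 CPM at 8°C. Each HY/HY library at 30°C was above all 9 others, and the third was more than 3 times as high as the next. The fitted cold response in HY/HY mice was a log2 fold change of -1.80 (SE 0.425, edgeR adjusted p = 0.111). Leaving out the third library, which has the highest value, reduced it to -0.95 but brought the adjusted p to 0.0398, so the gene was then called lower. With all 12 libraries it was also called lower by DESeq2 (log2 -1.79, adjusted p = 0.00248) and by edgeR without a low-count filter (-1.82, adjusted p = 0.0135). The genotype difference at 30°C was 1.20 with all libraries (edgeR adjusted p = 0.155) and 0.37 without it (0.52).

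*Insr* encodes the insulin receptor, and *Igf1r* the receptor for IGF-1. *Insr* was at 81.1, 77 and 87.3 CPM in wild-type mice at 30°C and at 95.8, 107 and 109.8 CPM at 8°C. In HY/HY mice it was at 84, 82.1 and 106 CPM at 30°C and at 108, 114 and 121 CPM at 8°C. In both genotypes the libraries at 8°C lay above those at 30°C without overlap. The log2 fold change was 0.35 in wild-type mice (95% interval 0.091 to 0.60, edgeR adjusted p = 0.0503) and 0.34 in HY/HY mice (95% interval 0.079 to 0.59, adjusted p = 0.23), under the fold limit in both. The cold response differed between the genotypes by -0.012 (95% interval -0.37 to 0.35). *Igf1r* had group means from 14.8 to 17.3 CPM, and its groups overlapped in all 4 comparisons. Its log2 fold changes ran from -0.12 to 0.17, with edgeR adjusted p of 0.634 or more.

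*Irs1* and *Irs2* encode the substrates that carry most of the insulin receptor's signal to PI3K. *Irs1* read 109, 104 and 142 CPM in wild-type mice at 30°C and 87.5, 82 and 103 CPM at 8°C. Its HY/HY libraries held 95.5, 76.4 and 126 CPM at 30°C and 116, 126 and 112 CPM at 8°C. The genotypes were separated at 8°C only, where the HY/HY libraries were higher (log2 0.37, 95% interval -0.017 to 0.77, edgeR adjusted p = 0.246). *Irs2* read 14.6, 25.6 and 14.2 CPM in wild-type mice at 30°C and 14.6, 20.6 and 40.3 CPM at 8°C, where its coefficient of variation, 53.4%, was the highest of the members in that group. In HY/HY mice it read 25.1, 19.6 and 23.3 CPM at 30°C and 34.9, 37.7 and 37.2 CPM at 8°C, which did not overlap (log2 0.69, edgeR adjusted p = 0.341). Neither gene was called in any comparison of the main fit. In wild-type cold the *Irs1* groups did not overlap (log2 -0.38, edgeR adjusted p = 0.14). With library totals alone *Irs1* was called lower there (-0.71, edgeR adjusted p = 0.00451). Counting without regard to strand kept 1480 of the 24168 pairs of *Irs1*, or 6.12%, while the other 9 members kept at least 99.1%. The values of *Irs1* thus hold for the strand-specific counts, and the gene on the other strand was not looked for here.

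*Akt1* and *Akt2* encode the AKT kinases, of which AKT2 is the one most tied to glucose uptake. *Akt1* was at 188.5, 171 and 178 CPM in wild-type and 137, 146 and 159.8 CPM in HY/HY mice at 30°C, without overlap. The log2 fold change was -0.28 (95% interval -0.49 to -0.062, edgeR adjusted p = 0.169). At 8°C the means of *Akt1* were 157 ± 4.62 CPM in wild-type and 158 ± 6.96 CPM in HY/HY mice (SD, n = 3), with a 95% interval of the log2 difference from -0.20 to 0.23. *Akt2* rested between 251 and 405 CPM in all libraries, with log2 fold changes from -0.098 to 0.22 and edgeR adjusted p of 0.365 or more. The share of *Akt2* in the summed CPM of both kinases was 61.8% ± 3.21 in wild-type mice at 30°C, and 68.9% ± 3.71, 68.4% ± 1.21 and 69.6% ± 2.82 in HY/HY mice at 30°C, wild-type mice at 8°C and HY/HY mice at 8°C (SD, n = 3). Wild-type mice at 30°C had the lowest mean share, and their highest library, at 65.4%, overlapped the lowest HY/HY library at 30°C, at 64.7%.

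*Foxo1* encodes the transcription factor that AKT phosphorylates and inactivates. It held 40.1, 47.6 and 43 CPM in wild-type mice at 30°C and 38.5, 53 and 44 CPM at 8°C. The HY/HY libraries held 51.6, 40.5 and 79.6 CPM at 30°C and 60.7, 55.3 and 76.2 CPM at 8°C. All 3 HY/HY libraries at 8°C exceeded the wild-type ones, by a log2 fold change of 0.50 (SE 0.219, 95% interval 0.024 to 0.98, edgeR adjusted p = 0.201), which was not called. With library totals alone, a scaling that moved the median of all genes there to 0.15, it was called (log2 0.63, edgeR adjusted p = 0.0466).

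Over the 10 members, 1 was called lower and 0 higher in wild-type cold, where 6.93% of all tested genes were called lower and 10.3% higher. Groups did not overlap for 5 of them, against 43.4% of all genes. In the cold response of HY/HY mice 0 were called, 3 had an unadjusted edgeR p under 0.05 (14.7% of all genes did), and DESeq2 called 1 lower (0.568%). There edgeR called 0.181% of all genes higher and 0.0665% lower, and groups did not overlap for 3 members and 18.3% of all genes. Between genotypes at 30°C 0 members were called by edgeR and 0 by DESeq2, 2 had an unadjusted p under 0.05 (18.6% of all genes did), and the edgeR background was 0.562% higher and 0.441% lower. Groups did not overlap for 2 members and 18.3% of all genes. Between genotypes at 8°C 2 were called higher and 0 lower, where 1.51% of all genes were called higher and 4.42% lower, and groups did not overlap for 4 members, all higher in HY/HY mice, against 35.4% of all genes. In the interaction 0 were called by edgeR, 4 had an unadjusted p under 0.05 (15.0% of all genes did) and DESeq2 called 1 higher (0.574%), with 0.169% of all genes called higher by edgeR and 2.07% lower. The median log2 fold change of the members at 8°C between genotypes was 0.27, beside 0.012 over all genes. In wild-type cold it was -0.16, beside -0.069. In HY/HY cold, between genotypes at 30°C and in the interaction it was 0.20, 0.18 and 0.17, beside -0.015, -0.0081 and 0.043.

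**Figure D3:**
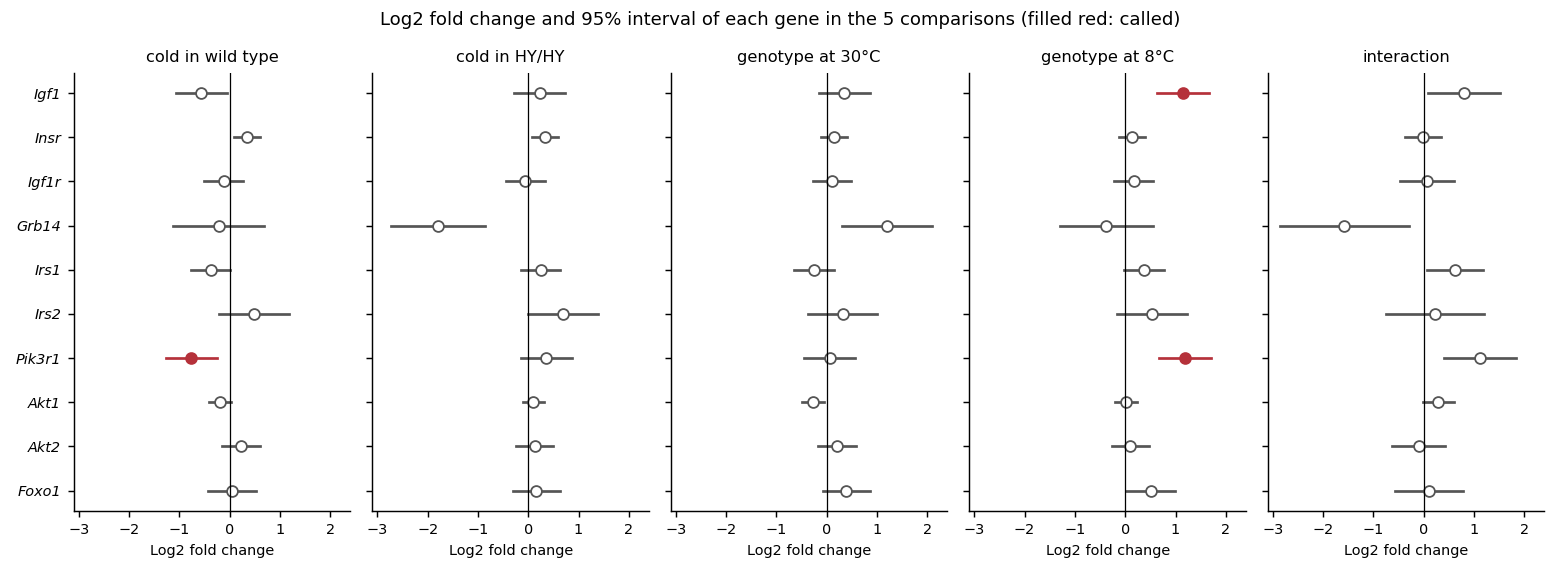
Log2 fold change (x axis) with its 95% interval for each gene (y axis) in the 5 comparisons; filled red marks a called gene. *Pik3r1* is called in wild-type cold at -0.77 and, with *Igf1*, between genotypes at 8°C at 1.18 and 1.15, and no gene is called elsewhere.

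The promoters of *Igf1* and *Pik3r1* are shown as those of the members called between genotypes at 8°C, and those of *Irs1* and *Irs2* as the windows of the members that held an E-box. They are the 250 bases before a RefSeq start site (GRCm38.p6, the files' mm10 build), with capitals for a CACGTG E-box, the site of many basic helix-loop-helix factors. The windows lie at chr10:87860861-87861110 (plus strand) for *Igf1*, chr13:101768218-101768467 (minus strand) for *Pik3r1*, chr1:82291440-82291689 (minus strand) for *Irs1* and chr8:11008930-11009179 (minus strand) for *Irs2*. The *Igf1* window lies inside the gene, before an internal start site. The gene itself begins at chr10:87858265, and no window before that position was at hand.
Igf1: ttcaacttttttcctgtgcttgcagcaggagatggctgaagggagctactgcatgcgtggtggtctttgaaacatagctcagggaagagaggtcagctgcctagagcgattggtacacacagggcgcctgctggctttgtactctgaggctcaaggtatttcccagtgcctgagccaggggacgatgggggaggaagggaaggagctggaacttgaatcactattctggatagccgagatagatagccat
Pik3r1: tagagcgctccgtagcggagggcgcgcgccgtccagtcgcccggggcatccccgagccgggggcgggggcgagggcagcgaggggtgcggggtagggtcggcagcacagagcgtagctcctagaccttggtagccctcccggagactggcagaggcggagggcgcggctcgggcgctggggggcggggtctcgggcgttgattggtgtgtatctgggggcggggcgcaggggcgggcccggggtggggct
Irs1: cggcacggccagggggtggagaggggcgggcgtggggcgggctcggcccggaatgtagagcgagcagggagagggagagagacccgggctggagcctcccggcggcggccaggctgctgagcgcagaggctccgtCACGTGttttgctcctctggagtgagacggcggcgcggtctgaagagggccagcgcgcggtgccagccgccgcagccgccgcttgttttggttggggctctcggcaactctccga
Irs2: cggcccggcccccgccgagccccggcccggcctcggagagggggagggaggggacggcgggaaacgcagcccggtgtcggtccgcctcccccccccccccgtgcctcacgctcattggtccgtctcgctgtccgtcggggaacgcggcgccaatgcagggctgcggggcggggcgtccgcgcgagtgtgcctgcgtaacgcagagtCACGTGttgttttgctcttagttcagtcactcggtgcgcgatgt

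The CACGTG word was found in the windows of *Irs1*, 115 bases before the start, and of *Irs2*, 44 bases before it, and in 6.02% of all 32851 windows of this length. RefSeq windows were at hand for 9 members, all but *Insr*. A search on both strands for 4 other words found the FOXO word GTAAACA in 1 window of *Akt1* (3.17% of all windows) and the STAT word TTCNNNGAA in 1 window of *Akt2* (7.02%). The CREB word TGACGTCA (1.55%) and the glucocorticoid receptor word TGTTCT (16.1%) were in no member's window. None of the 5 words occurred in the windows of *Igf1*, *Pik3r1*, *Foxo1*, *Grb14* or *Igf1r*. The *Pik3r1* window printed had 76.4% G and C, the second RefSeq window of this gene, not printed, 42.4%, and that of *Igf1* 52.8%, against a median of 52.4% over all windows.

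As a description over 12 libraries that share groups, *Pik3r1* and *Igf1* had the highest Pearson correlation of log2 CPM among the members, at 0.916. After the group means were removed it was 0.764, and the highest was that of *Grb14* and *Igf1*, at 0.931 (0.334 with group means kept), both high in the third HY/HY library at 30°C. *Foxo1* followed *Igf1* at 0.816, and 0.864 within groups. *Insr* and *Akt2* were correlated at 0.761. The genes outside the list most like *Igf1* were *Gsn*, *Ahcyl2* and *Apoe* (0.949, 0.949 and 0.94), and those most like *Pik3r1* were *Trim32*, *Dclk3* and *Paip2b* (0.932, 0.919 and 0.913). *Insr* went with *Acsl1* and *Ermp1* (0.977 and 0.972). *Irs1* resembled *March8*, *Prps1* and *Plin4* (0.909, 0.896 and 0.89), and *Foxo1* resembled *Hnmt* at 0.958. *Grb14* went with *Dlg2*, *Serpine2* and *Kbtbd3* (0.895, 0.888 and 0.878).

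A further 81 genes of insulin and IGF signalling in 10 lists gave the surroundings, of which 79 were tested. *Igf2* and *Irs4* had at most 4 counts in a library and were not. In wild-type cold 5 were called higher and 8 lower, or 6.33% and 10.1%, beside 10.3% and 6.93% of all genes. Between genotypes at 8°C 1 was higher and 3 lower, or 1.27% and 3.8%, beside 1.51% and 4.42% of all genes. In the interaction 0 were higher and 3 lower, the latter 3.8%, beside 0.169% and 2.07% of all genes. At 30°C 1 was higher and 0 lower, beside 0.562% and 0.441%, and in the cold response of HY/HY mice 0 were called either way, although without the third HY/HY library at 30°C 11 were called higher there and 1 lower, beside 2.72% and 1.2% of all genes in that setting. In this comparison same-numbered libraries deviated together. With a replicate block, fitted over all 12 libraries and not over the HY/HY ones alone, 2 were called higher, beside 0.774% of all genes. They were *Cat* (log2 1.30, edgeR adjusted p = 0.0383) and *Pdk4* (2.17, 0.0493), named here after their values were seen. The 8 lower in wild-type cold became 2, 3 and 4 without the third, the second and the first wild-type library at 8°C, 4 and 5 without the first and the second wild-type library at 30°C, and 5 without the second HY/HY library at 8°C. The 1 higher between genotypes at 8°C became 0 without the second or the third wild-type or the first or the third HY/HY library at 8°C, 2 without the second HY/HY library at 8°C or at 30°C, and 5 without the third HY/HY library at 30°C. The 1 higher at 30°C became 2 without the first HY/HY library at 30°C and 0 without any other library but the second HY/HY library at 30°C and the third at 8°C.

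Among 7 inhibitors of the receptor and of IRS, 3 fell with cold in wild-type mice, where 6.93% of all genes did. *Socs3*, a feedback inhibitor that targets IRS proteins, fell from 22.9 ± 3.06 to 11.2 ± 1.10 CPM (log2 -1.03, edgeR adjusted p = 0.00935, SD, n = 3). *Ptpn1* encodes PTP1B, which dephosphorylates the receptor, and fell by 0.67 on the log2 scale (edgeR adjusted p = 0.0265). *Ptprf*, another receptor phosphatase, fell by 1.14 (edgeR adjusted p = 0.0452). *Ptpn1* and *Ptprf* lost the call in 4 and 9 of 22 alternatives. *Pik3ip1*, an inhibitor of PI3K, fell by 0.87 (edgeR adjusted p = 0.0175), a call lost in 3 of them, among them without the second wild-type library at 30°C (-0.61, adjusted p = 0.0741), which held the muscle markers.

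In the mTOR complexes list, 3 of 9 genes rose with cold in wild-type mice, where 10.3% of all genes did. *Mtor*, the kinase itself, rose from 37.6 ± 6.73 to 102 ± 3.90 CPM (log2 1.44, edgeR adjusted p = 5.19e-05). *Deptor*, its inhibitor, rose by 0.99 (edgeR adjusted p = 0.00844) and *Mapkap1*, the mTORC2 subunit SIN1, by 0.63 (0.00069), which was lost in 1 of 22 alternatives. *Mtor* was lower in HY/HY than in wild-type mice at 8°C, at 63.8 ± 5.32 CPM (log2 -0.68, edgeR adjusted p = 0.0138), a call lost in 4 of 22 alternatives. *Deptor* differed at 30°C, where it read 79.2 to 90.6 CPM in wild-type and 124 to 278 CPM in HY/HY libraries (log2 1.16, edgeR adjusted p = 0.0394), a call lost in 12 of 22 alternatives, among them without the third HY/HY library at 30°C (log2 1.25, adjusted p = 0.0565).

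In the growth hormone axis list, the receptor *Ghr*, whose signal induces *Igf1*, was higher in HY/HY mice at 8°C. It read 304, 315 and 336 CPM in wild-type and 853, 603 and 1049 CPM in HY/HY mice at 8°C (log2 1.39, SE 0.307, edgeR adjusted p = 0.0193). The call was lost without any 1 of 5 of the 6 libraries at 8°C, with adjusted p up to 0.0856. In these 5 settings the genes called higher over all genes fell from 249 to between 43 and 106. *Stat5a*, a transcription factor of this receptor, fell in wild-type cold by 0.75 on the log2 scale (edgeR adjusted p = 0.0386), a call lost in 8 of 22 alternatives.

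Among 11 listed FOXO targets, 2 rose and 2 fell with cold in wild-type mice, beside 10.3% and 6.93% of all genes. *Pdk4*, which blocks pyruvate dehydrogenase, rose 21.3-fold, from 37.4 ± 13 to 796 ± 210.3 CPM (edgeR adjusted p = 9.27e-05). *Sod2*, the mitochondrial superoxide dismutase, rose 4.2-fold (edgeR adjusted p = 3.73e-05). *Sesn3* and *Sesn1*, which encode sestrins that restrain mTORC1, fell by 0.83 (edgeR adjusted p = 0.00612) and 0.59 (0.00902), and the *Sesn1* call, at the fold limit, was lost in 7 of 22 alternatives. At 8°C *Pdk4* and *Sod2* were lower in HY/HY than in wild-type mice, by log2 fold changes of -2.49 (edgeR adjusted p = 0.00688) and -1.04 (0.00657). Among receptors and adaptors, *Insrr*, an orphan relative of the insulin receptor, read 0.469 to 1.54 CPM at 30°C and 0.151 to 0.449 CPM at 8°C in the wild-type libraries. It passed the low-count filter through its levels at 30°C, so that its place among the 8 lower genes is not read as a result.

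**Figure D4:**
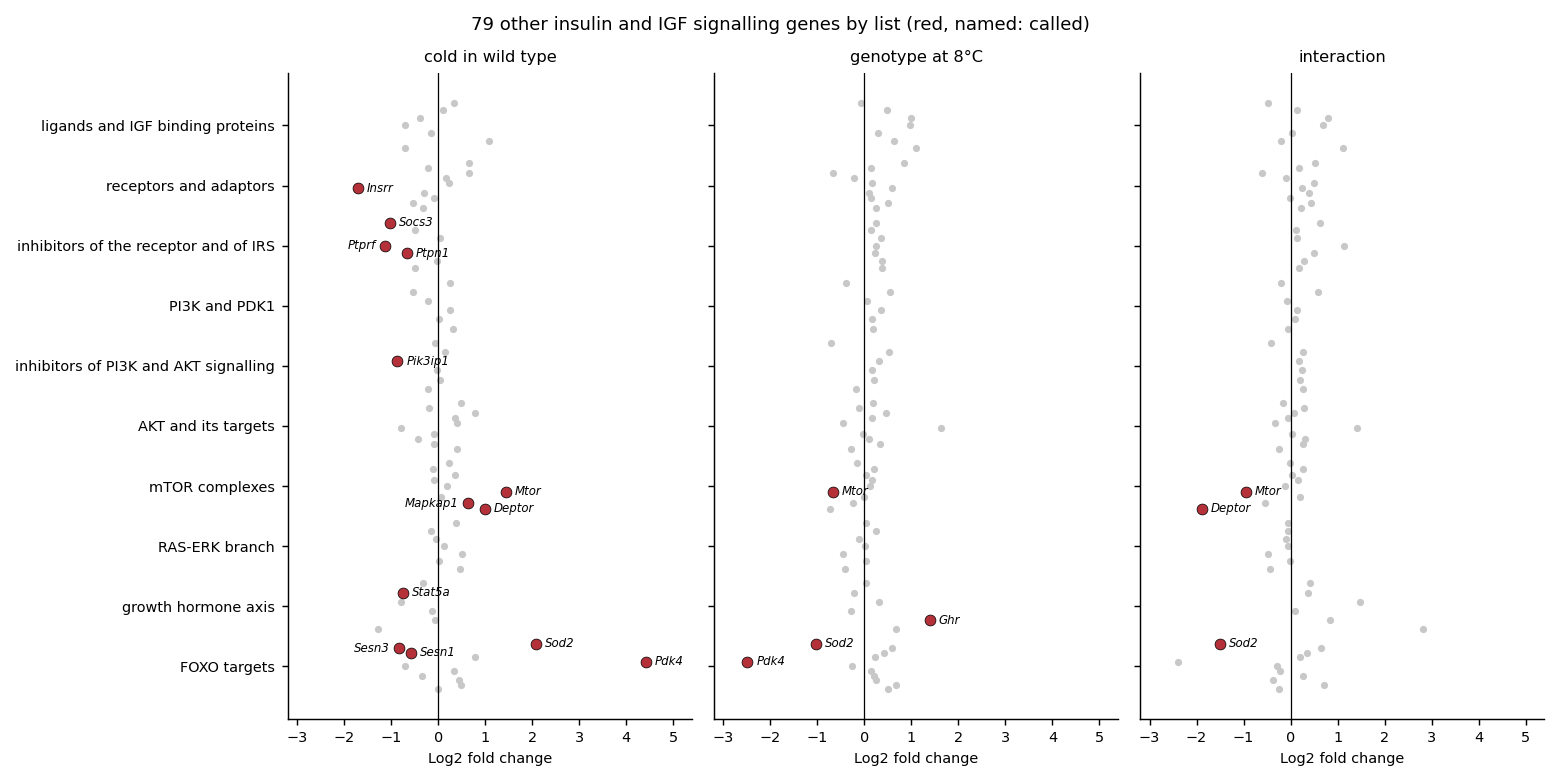
Log2 fold change (x axis) of the 79 tested pathway genes in 10 lists (y axis) for wild-type cold, genotype at 8°C and the interaction; red and named marks a called gene, grey one that was not. *Pdk4*, *Sod2* and *Mtor* rise in wild-type cold and are lower in HY/HY mice at 8°C, whereas *Ghr* is the one gene called higher there.

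In bulk tissue, fewer cells of a type and less RNA per cell cannot be told apart. Macrophage markers summed to 160 to 168 CPM in wild-type and 254 to 351 CPM in HY/HY libraries at 8°C, where *Csf1r*, *Mrc1* and *Cd163* of the 7 were called higher. White adipocyte markers at 8°C summed to 28700 to 35300 CPM in wild-type and 35000 to 45800 CPM in HY/HY libraries, and 2 of 7, *Lep* and *Retn*, were called higher. The thermogenic adipocyte markers summed to 8340 to 9250 CPM and 533 to 1680 CPM in the same order, with 6 of 7 called lower. Endothelial markers summed to 411 to 635 CPM at 30°C and 771 to 1060 CPM at 8°C in wild-type mice, with 4 of 5 called higher, and mammary epithelial markers to 2050 to 3680 CPM and 1370 to 1510 CPM, with *Wap* at 2 counts at most. In wild-type cold all 7 thermogenic markers were also called higher, from a sum of 76.4 to 201 CPM at 30°C, and 2 of 7 white adipocyte markers, *Lep* and *Cfd*, lower. Of 6 tested muscle markers 5 were called lower there. The muscle list summed to 10.4, 1290 and 23.1 CPM at 30°C and 3.56, 11.2 and 11.9 CPM at 8°C, so 1 library held most of it. Among the 5, *Ckm* and *Tnnt3* overlapped between the 2 temperatures. At 30°C mammary epithelial markers summed to 2050 to 3680 CPM in wild-type and 527 to 1460 CPM in HY/HY libraries, and macrophage markers to 202 to 207 CPM and 227 to 396 CPM, without overlap of the sums and with 0 of 7 markers called in either list. Taken singly, only *Krt8* and *Krt18* of the tested mammary markers and *Adgre1* and *Mrc1* of the macrophage markers did not overlap there. These lists moved in the same comparisons as *Igf1*, *Pik3r1* and, at 30°C, *Deptor*, *Akt1* and *Grb14*, and their part in those differences was not tested.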

How the data were processed

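scWAT RNA of 12 mice was sequenced as read pairs. The authors trimmed the reads with fastp, aligned them with STAR to mm10 with GENCODE M25 genes, and deposited raw counts of read pairs per gene without regard to strand and by strand. The versions of their tools are not given in the sources used here. The fourth column was used, since it held 95.55% to 96.22% of the pairs that lay on 1 of the 2 strands of genes. Entries that name no gene (55.77% to 63.51% of pairs) stayed out of library sizes and tests. Of 55401 IDs, 32589 were matched to a symbol. Counts were filtered with filterByExpr and scaled by TMM, and the 4 group means were fitted in 1 quasi-likelihood model over the 12 libraries (edgeR 4.0.16, R 4.3.3), after it had been tested on simulated data. DESeq2 1.42.0, other scalings, filters and strands, a replicate block and leaving out each library were the alternatives. 1 alternative, which left out both libraries that stand apart, was added after the data were seen. Named were all members, at most 4 called genes of each pathway list and comparison, and, of the 3 genes most like a member, those given in the text; 1 of them is not reported here for *Insr*. Replicate numbers of the labels were taken to pair samples in HY/HY cold only, where all 3 same-numbered pairs deviated together (r from 0.112 to 0.303, and each of the 6 samples correlated best with its own number). The replicate block, however, was fitted over all 12 libraries, so it tied same-numbered samples of all 4 groups. No fit paired the HY/HY samples alone. The members and lists were chosen with earlier results of these data known.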

Additional observations from a re-analysis of the deposited data

Results flagged for a closer look

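Of the 79 tested pathway genes, 3 were called lower in the interaction, or 3.8%, and 0 higher. Of all genes 2.07% were called lower there and 0.169% higher. The 3 were *Deptor*, *Mtor* and *Sod2*, whose cold responses differed between the genotypes by the interaction term. Less the wild-type response, the HY/HY response was -1.89 on the log2 scale for *Deptor* (edgeR adjusted p = 0.0138), with means of 190 and 102 CPM at 30°C and 8°C in HY/HY mice and 85.1 and 169 CPM in wild-type mice. It was -0.95 for *Mtor* (edgeR adjusted p = 0.0312), which was lost in 12 of 21 alternatives, among them without the third HY/HY library at 30°C (-0.87, edgeR adjusted p = 0.0531), and -1.50 for *Sod2* (edgeR adjusted p = 0.0146), which was lost in 4. That of *Deptor* was lost in 3. The 3 calls became 0 without the first wild-type library at 30°C or without the first or the third HY/HY library at 8°C. Without the third wild-type library at 8°C they became 1. In those settings 81, 64, 76 and 81 of all genes were called lower in the interaction, against 342 with all 12 libraries.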

How the results depend on the processing

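The calls of *Pik3r1* and *Igf1* between genotypes at 8°C kept their direction in all 22 alternatives and lost the threshold in 3 and 4 of them, all with 1 library left out. Their log2 fold changes stayed above the fold limit, and the adjusted p alone was lost. The cause of the changes below was not tested. Deviations of same-numbered samples from their group means correlated from -0.069 to 0.35, and 11 of 18 such pairs were over 0.1, against 5 of 36 pairs with different numbers. All 3 pairs were over 0.1 in HY/HY cold, and 2 of 3 in each other comparison, where the numbers were not taken to pair the samples. With a replicate block the members called stayed at 1, 0, 0, 2 and 0 in the 5 comparisons. The pathway genes called became 2 higher in HY/HY cold, 1 lower between genotypes at 30°C and 5 higher at 8°C. Of all 16540 genes, 128, 300 and 398 were called in that order with the block, against 30, 73 and 249 without it.

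Members called in wild-type cold were 3 with library totals alone, a scaling that moved the median of all genes there to -0.41. Under it 4133 of 16540 genes were called lower there and 1057 higher. The members called were 2 with both libraries that stand apart left out, where 1005 of 16579 genes were lower and 1583 higher. In HY/HY cold the members called were 1 with DESeq2, 1 without a low-count filter and 3 with both libraries left out. All genes called there were 216 higher and 94 lower of 16540 with DESeq2. Without the filter they were 101 and 49 of 31016, and with both libraries left out 538 and 308 of 16579. Between genotypes at 8°C the members called were 3 with library totals alone, beside 535 of 16540 genes higher and 480 lower. In the interaction the members called were 1 with library totals alone, 1 with DESeq2 and 2 with both left out. All genes called higher there were 43, 95 and 29 in that order, and those called lower 188, 714 and 119. Leaving out 1 library gave 0 to 1 members in wild-type cold and 0 to 3 in HY/HY cold. It gave 0 to 2 between genotypes at 8°C and 0 to 2 in the interaction. The ranges over all genes are given below with the pathway genes.

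Pathway genes called higher in wild-type cold were 8 with only the libraries compared, where 1795 of 15745 genes were. They were 8 with both libraries left out, where 1583 of 16579 genes were, and 10 without a fold limit. Those called lower were 5 with RLE size factors, where 996 of 16540 genes were, and 18 with library totals alone, where 4133 were. In HY/HY cold, 3 were higher and 1 lower with DESeq2, and 2 and 1 without a low-count filter. They were 11 and 3 with both libraries left out, and 2 higher at an adjusted p limit of 0.1. All genes higher and lower were 216 and 94, 101 and 49, and 538 and 308 in the first 3 settings. Between genotypes at 30°C, 0 were higher with library totals alone or only the libraries compared, where 20 and 0 of all genes were. There 1 was lower with DESeq2, without a low-count filter and at the limit of 0.1. All genes lower were 312 with DESeq2 and 283 without the filter. At 8°C, 7 were higher with library totals alone, 5 with DESeq2 and 6 without a low-count filter. All genes higher in these settings were 535, 406 and 355. With only the libraries compared 7 were higher and 5 lower, beside 634 and 982 of 15157 genes. With both libraries left out 6 were higher, beside 465 of 16579 genes. Without a fold limit 2 were higher, and at the limit of 0.1 it was 5. In the interaction, 1 was higher without a low-count filter and 1 with both left out, where 34 and 29 of all genes were. With DESeq2 5 were lower, beside 714 of all genes, and 5 at the limit of 0.1. Leaving out 1 library gave 2 to 9 lower in wild-type cold, and 0 to 11 higher and 0 to 1 lower in HY/HY cold. It gave 0 to 2 higher at 30°C, 0 to 5 higher at 8°C, and 0 to 2 higher and 0 to 4 lower in the interaction. All genes then ran from 523 to 1531, from 7 to 461 and from 0 to 203 in the first 3 of these counts. They ran from 5 to 271, from 43 to 408, from 2 to 58 and from 64 to 605 in the rest.

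Values that changed sign were all in comparisons where the gene was not called. With both libraries left out, the genotype difference at 30°C was -0.022 for *Insr*, -0.036 for *Akt2*, -0.33 for *Pik3r1* and -0.081 for *Igf1*, and the interaction 0.16 for *Insr*, -0.070 for *Igf1r*, -0.096 for *Irs2* and 0.14 for *Akt2*. With library totals alone, the interaction was 0.20 for *Insr* and 0.12 for *Akt2*, the cold response -0.024 for *Akt1* in HY/HY mice and -0.10 for *Akt2* and -0.29 for *Foxo1* in wild-type mice, and the genotype difference at 30°C -0.046 for *Pik3r1*. *Irs1* was at 0.17 in wild-type cold when both strands were counted, and *Akt1* between genotypes at 8°C at -0.0044 with RLE size factors and -0.00449 with DESeq2. Leaving out 1 library gave, in wild-type cold, -0.28 to 0.029 for *Igf1r*, -0.044 to 0.81 for *Irs2* and -0.070 to 0.16 for *Foxo1*. In HY/HY cold it gave -0.14 to 0.11 for *Igf1r*, -0.043 to 0.29 for *Akt2* and -0.034 to 0.48 for *Foxo1*. At 30°C it gave -0.058 to 0.19 for *Igf1r*, -0.28 to 0.22 for *Pik3r1* and -0.050 to 0.56 for *Igf1*, and at 8°C -0.0065 to 0.050 for *Akt1*. In the interaction it gave -0.081 to 0.11 for *Insr*, -0.085 to 0.23 for *Igf1r*, -0.12 to 0.74 for *Irs2*, -0.27 to 0.059 for *Akt2* and -0.087 to 0.42 for *Foxo1*.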
